A study of Mus musculus with 8 samples.

Results

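The 10 genes described here carry sugar through glycolysis and lactate out of the cell: the glucose carrier Slc2a1, the enzymes Hk2, Pfkl, Pfkp, Aldoa, Pgk1, Pkm and Ldha, the lactate carrier Slc16a3, and Pdk1, which holds pyruvate back from oxidation in the mitochondria. They were taken by symbol from a fixed list of pathway genes. Their values were not a criterion, but earlier results of these data were known when they were chosen. All 10 were found among 19938 genes that had a probe set with 1 gene symbol. The samples were primary myoblasts, grown in proliferation medium on Matrigel from satellite cells of the gastrocnemius of C57bl/6 mice aged 2 to 3 weeks, with no further treatment or time course. Of 8 single-colour Affymetrix MoGene 1.0 ST arrays, 4 were labelled WT and 4 Runx1f/f, a line the labels also call KO, each numbered 1 to 4 as biological replicates. The sources used here do not name the Cre driver behind the knockout, the sex of the mice or whether cultures came from separate animals, so spreads and p-values below measure differences between these samples, which may be technical.

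Glycolysis splits glucose into pyruvate in the cytosol and yields ATP without oxygen. Proliferating cells, myoblasts among them, run it fast and export much of the pyruvate as lactate, while differentiating muscle switches to muscle forms of several carriers and enzymes. Hypoxia-inducible factor raises many of these genes through short response elements, and pyruvate dehydrogenase kinases set how much pyruvate enters oxidation instead.

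The stretches before the annotated start sites are shown for 4 genes that the results turn on: Slc2a1 and Pkm, the members whose values separated the array sets described below, Ldha, whose values differed least between arrays, and the lactate carrier Slc16a3. Sequences are from RefSeq, build GRCm38.p6, 250 bases each, on the coding strand and 5′ to 3′. Capitals mark ACGTG, a form of the hypoxia response element core, and TGTGGT, a form of the core recognised by Runx factors, both searched on either strand. Other forms were not searched. The Slc2a1 window lies at chr4:119108495-119108744 on the plus strand, Pkm at chr9:59656326-59656575 (plus), Ldha at chr7:46845554-46845803 (plus) and Slc16a3 at chr11:120948817-120949066 (plus).
Slc2a1: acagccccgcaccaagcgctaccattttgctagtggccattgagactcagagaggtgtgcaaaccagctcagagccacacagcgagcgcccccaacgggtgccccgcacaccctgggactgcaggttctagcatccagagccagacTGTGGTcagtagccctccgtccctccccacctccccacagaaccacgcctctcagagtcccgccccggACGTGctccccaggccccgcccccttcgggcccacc
Pkm: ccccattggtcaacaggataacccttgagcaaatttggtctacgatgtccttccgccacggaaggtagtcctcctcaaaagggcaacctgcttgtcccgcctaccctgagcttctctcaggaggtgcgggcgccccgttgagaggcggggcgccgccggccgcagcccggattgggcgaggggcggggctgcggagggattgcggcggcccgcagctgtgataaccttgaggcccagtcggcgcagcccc
Ldha: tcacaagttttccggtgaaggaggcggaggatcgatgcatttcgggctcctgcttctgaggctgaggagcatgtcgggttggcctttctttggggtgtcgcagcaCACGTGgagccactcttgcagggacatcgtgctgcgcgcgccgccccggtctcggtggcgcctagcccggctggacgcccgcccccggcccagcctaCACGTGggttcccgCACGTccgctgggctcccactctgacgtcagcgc
Slc16a3: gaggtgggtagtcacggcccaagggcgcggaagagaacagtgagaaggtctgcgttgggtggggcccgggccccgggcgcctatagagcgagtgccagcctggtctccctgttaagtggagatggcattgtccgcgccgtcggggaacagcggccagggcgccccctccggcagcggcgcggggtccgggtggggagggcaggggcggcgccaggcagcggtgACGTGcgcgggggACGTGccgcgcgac

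The Slc2a1 window holds 1 ACGTG core, 36 bases before the start, and 1 TGTGGT core 104 bases before it. Slc16a3 holds 2 ACGTG cores, 27 and 14 bases before the start. In the Ldha window shown 5 ACGTG matches were found. Those at 145 and 144 and at 48 and 47 bases are the 2 strands of the E-box CACGTG. The last lies at 34 bases, and a second annotated start of Ldha has 0 matches. The Pkm window shown has no match, while a second annotated start of Pkm has 1 ACGTG core 75 bases before it. Over all annotated starts, 7 of the 10 genes had an ACGTG core in at least 1 window (Slc2a1, Hk2, Aldoa, Pgk1, Pkm, Ldha and Slc16a3). Among 27025 gene symbols in the same table the share was 18.5%, and by window it was 8 of 15 for the members against 16.6% of 32851. TGTGGT was found in 3 members (Slc2a1, Pfkp and Pdk1) and in 15.9% of gene symbols. These are matches of letters, and no binding was measured.

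The structure of the columns bears on every result below. In each of the 35399 rows, 3 means coincided to within 7.5e-05 on the log2 scale: that over the WT columns, that over Runx1f/f 1 with 2, and that over Runx1f/f 3 with 4. Within the Runx1f/f columns each value of number 1 is therefore the mirror of number 2 around the gene's mean, and number 3 that of number 4. Runx1, the targeted gene, gave 9.15, 9.99, 10.27 and 9.25 across WT 1 to 4, with 9.35, 9.98, 9.89 and 9.44 across Runx1f/f 1 to 4. Its means were 9.67 ± 0.55 and 9.67 ± 0.32 (SD, n = 4), and a two-sided exact permutation test (70 assignments) gave p = 1, an outcome that the equal column means fix for any gene, so it says nothing of Runx1. The sources used here do not give the deleted part of Runx1 or whether the probe set lies in it. Whether each column carries the label it was meant to carry was not tested. If the columns stood in rising order of the labels' source numbers, those numbered 1 and 4 here would all be WT and those numbered 2 and 3 all Runx1f/f. No such mapping was used.

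Between the labelled genotypes, the glycolytic genes had equal means, as every row of the table has. In limma, which fits every gene and adjusts p by Benjamini-Hochberg, 0 of the 10 members were called, against 0% of all 19938 genes, where also 0 genes had an unadjusted p under 0.05. The differences, Runx1f/f minus WT, were at most 2.5e-05 in size among the members. These values carry no information on what Runx1 does to glycolysis. The spread differed between the labels in some members. Slc2a1 had an SD of 0.53 over WT and 0.07 over Runx1f/f arrays, and Slc16a3 0.26 and 0.03. Hk2 went the other way, with 0.03 and 0.19. The SD was larger in WT for 6 of 10 members and for 64.8% of all genes, and no test was made of it. The equal means of Runx1f/f 1 with 2 and of 3 with 4 leave no spread between those pairs. The WT columns are held to an equal mean only as a whole, so the SDs of the 2 labels are not measured alike.

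The levels were then read by replicate number, numbers 2 and 3 of both labels against numbers 1 and 4. This division is not one of the labels: in earlier results of these data the 4 arrays of numbers 2 and 3 fell on one side of the leading principal component, which held 65.5% of the variance over genes. Within Runx1f/f the mirrored columns place 1 opposite 2, and 3 opposite 4, on any component, so that part of the split was fixed. Because the earlier results defined the 2 sets, the comparison is a description with no test. Whether the division follows the genotype of the cultures was not tested. In bulk RNA such as this, more cells of a type and more RNA per cell cannot be told apart. A gene is called apart when all 4 values of one set lie above all 4 of the other. Of the 10 members 2 were apart, against 20.4% of all genes. Slc2a1 was higher in numbers 2 and 3, against 9.87% of all genes higher, and Pkm was lower, against 10.5% lower. The members' share is thus that of the array as a whole, and lies under the 30.8% found among the genes with a mean above the median. The median absolute difference between the sets was 0.11 for the members and 0.06 for all genes.

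**Figure D1:**
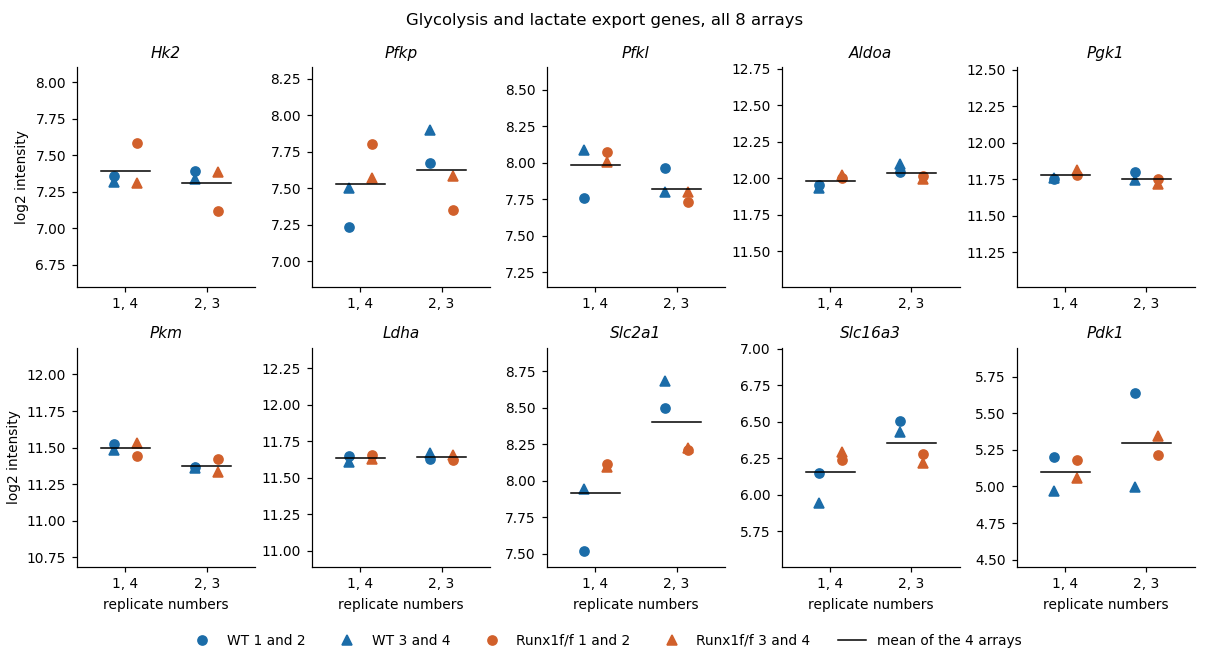
Log2 intensity (vertical axis, a window of equal height in each panel) of the 10 genes in all 8 arrays, by replicate numbers 1 and 4 or 2 and 3 (horizontal axis). Blue is WT, orange Runx1f/f, circles are numbers 1 and 2, triangles numbers 3 and 4, and lines are means of 4 arrays. Slc2a1 and Pkm are the panels without overlap, and Ldha, Pgk1 and Aldoa are nearly flat.

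Glucose entry showed the widest variation. Slc2a1 encodes GLUT1, the carrier for basal glucose uptake. Values were 7.52, 8.50, 8.69 and 7.94 for WT 1 to 4, with 8.12, 8.21, 8.23 and 8.10 for Runx1f/f 1 to 4. Numbers 2 and 3 were all above numbers 1 and 4, but in Runx1f/f by a narrow margin. The set means were 8.41 ± 0.23 and 7.92 ± 0.28 (SD, n = 4), a difference of 0.49 on the log2 scale or 1.40-fold. Within WT arrays the difference was 0.86 and within Runx1f/f arrays 0.11. Its range over the 8 arrays, 1.17, was wider than that of 97.3% of all genes.

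Hk2, hexokinase 2, traps glucose as glucose 6-phosphate. In order of replicate number, WT gave 7.36, 7.39, 7.34 and 7.32 while Runx1f/f gave 7.59, 7.12, 7.39 and 7.31. The WT arrays nearly coincided. Runx1f/f 1 was the highest and Runx1f/f 2 the lowest of all 8, but as mirrored columns these hold 1 deviation, not 2. The sets overlapped, with means of 7.31 ± 0.13 in numbers 2 and 3 and 7.40 ± 0.13 in numbers 1 and 4.

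Phosphofructokinase commits sugar to glycolysis, and the list holds its liver form, Pfkl, and its platelet form, Pfkp. For Pfkl, WT 1 to 4 gave 7.76, 7.97, 7.80 and 8.09, while Runx1f/f gave 8.07, 7.73, 7.80 and 8.01. In Runx1f/f the numbers 2 and 3 were both lower, whereas in WT they lay between numbers 1 and 4. The set means were 7.82 ± 0.10 and 7.98 ± 0.15, a difference of -0.16.

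For Pfkp the values were 7.23, 7.67, 7.90 and 7.50 across WT 1 to 4, with 7.80, 7.35, 7.58 and 7.57 across Runx1f/f. Numbers 2 and 3 were higher in WT, by 0.42, and on average lower in Runx1f/f, by -0.22 with overlap. The 2 labels thus differed in sign by a gap of 0.64, which was not tested, and over all 8 arrays the difference was 0.10.

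Among the members, the enzymes of the middle and end of the pathway (Aldoa, Pgk1, Pkm and Ldha) had the 4 narrowest ranges over arrays, from 0.06 to 0.20. They were also the brightest members, with means of 11.43 to 12.01 against at most 8.16 in the others. Whether the narrow ranges go with place in the pathway or with brightness was not tested. Aldolase A, encoded by Aldoa, splits fructose 1,6-bisphosphate and ranged over the 8 arrays from 11.94 in WT 4 to 12.10 in WT 3. Phosphoglycerate kinase, encoded by Pgk1, makes the first ATP and ran between 11.71 (Runx1f/f 3) and 11.81 (Runx1f/f 4), which are mirrored columns. Both genes overlapped between the sets, with differences of 0.06 and -0.02. Pgk1 is represented by 3 probe sets, of which 2 hold the same values in every array and the other differed from them by at most 0.03.

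Pkm encodes muscle pyruvate kinase, which makes pyruvate and the second ATP, as the splice forms M1 and M2. Which of them its probe sets detect was not examined. The WT arrays 1 to 4 gave 11.52, 11.37, 11.36 and 11.49, and the Runx1f/f arrays gave 11.44, 11.42, 11.33 and 11.53. All 4 arrays of numbers 2 and 3 were below the other 4, with 11.42 in Runx1f/f 2 just under 11.44 in Runx1f/f 1. The set means were 11.37 ± 0.04 and 11.50 ± 0.04, a difference of -0.12 or 1.09-fold, and the difference was -0.14 within WT and -0.11 within Runx1f/f arrays. The second of its 2 probe sets, which carries RefSeq accessions where the first does not, gave the same order: 11.01 to 11.17 in numbers 2 and 3 against 11.19 to 11.26 in numbers 1 and 4.

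Ldha encodes the lactate dehydrogenase subunit that turns pyruvate into lactate. Values were 11.65, 11.63, 11.67 and 11.61 for WT 1 to 4, with 11.66, 11.62, 11.66 and 11.63 for Runx1f/f 1 to 4. Its range of 0.06 was narrower than that of all but 0.772% of genes, and the set means differed by 0.01. The stretch printed above holds 5 ACGTG matches, some of them the 2 strands of 1 E-box, and a second annotated start of Ldha has 0. Any part of these matches in the levels was not tested.

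Slc16a3 encodes MCT4, the carrier that exports lactate from glycolytic muscle. In order of replicate number, WT gave 6.15, 6.50, 6.43 and 5.94 while Runx1f/f gave 6.24, 6.28, 6.22 and 6.29. WT 2 and WT 3 were the highest and WT 4 and WT 1 the lowest of the 8, with the Runx1f/f arrays between them. The difference was 0.42 within WT, -0.02 within Runx1f/f and 0.20 over all 8 arrays, with overlapping sets.

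Pdk1, pyruvate dehydrogenase kinase 1, blocks the entry of pyruvate into the citric acid cycle. The WT arrays 1 to 4 gave 5.20, 5.64, 5.00 and 4.97, and the Runx1f/f arrays gave 5.18, 5.22, 5.34 and 5.06. WT 2 was the highest, and WT 3 lay below 3 of the 4 arrays it was set against. The difference of 0.20 came with overlapping sets, and was 0.08 without WT 2 and 0.30 without WT 3.

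Read within a label, with only 2 arrays against 2, the members again followed the whole array. In WT 5 of 10 were apart (Slc2a1, Slc16a3, Pfkp and Aldoa higher, Pkm lower), against 47.8% of all genes. In Runx1f/f 5 of 10 were apart (Slc2a1 and Pdk1 higher, Pkm, Pgk1 and Pfkl lower), against 58.3%, a share set in part by the mirrored columns. Slc2a1 and Pkm were the 2 members apart in the same direction in both labels. The sign of the difference was shared by the labels in 4 of 10 members and in 58.2% of all genes.

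**Figure D2:**
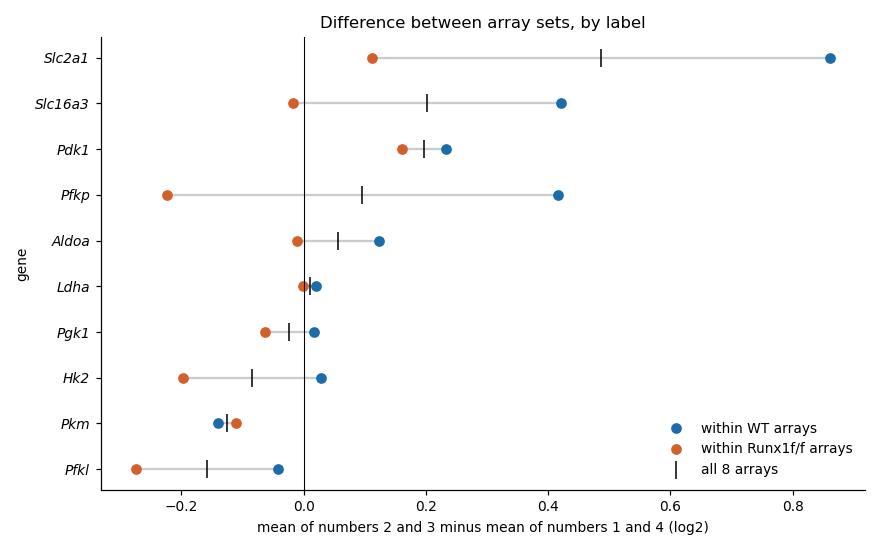
Mean of numbers 2 and 3 minus mean of numbers 1 and 4 on the log2 scale (horizontal axis) for each gene (vertical axis), within the 4 WT arrays (blue), within the 4 Runx1f/f arrays (orange) and over all 8 (bar). Slc2a1 reaches 0.86 in WT and 0.11 in Runx1f/f arrays, Pkm is negative in both, and Pfkp lies on opposite sides of 0.

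By array, WT 3 held the highest value for 4 of the 10 genes and WT 4 the lowest for 4. The genes whose centred profile over the 8 arrays lay nearest to that of Slc2a1 were Adamts4, a matrix protease, Myo9a, an unconventional myosin, L3mbtl3, Gramd1b and Tmem120b, with root mean square differences of 0.06 to 0.08 where Slc2a1 itself deviates by 0.33 around its mean on the same measure. None of them belongs to the pathway lists. Among the members the nearest was Pfkp with 0.22, which ranked at 467 of 19937 genes, and then Slc16a3 with 0.24 at 783. Ldha, Pgk1 and Pkm ranked at 7694, 8622 and 16089.

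The rest of the pathway was read through 7 lists of 81 further genes, of which 72 had a probe set with 1 symbol. Of these, 13 were apart upward and 11 downward, together 33.3%, against 20.4% of all genes and 30.8% of those above the median mean. Among other glycolytic enzymes, 3 of 13 were higher in numbers 2 and 3 and 2 lower, with a median difference of -0.02. Gapdh, Eno1 and Gpi1 had no probe set with 1 symbol and are not analysed here. Forms of the same enzyme took opposite sides. Pgam2, the muscle phosphoglycerate mutase, read 9.59 to 9.94 in numbers 2 and 3 and 9.09 to 9.57 in numbers 1 and 4. Pgam1, the widely expressed form, read 9.57 to 9.80 and 9.92 to 10.13, a difference of -0.30. Pfkm, the muscle phosphofructokinase, read 10.07 to 10.30 and 9.64 to 10.01, a difference of 0.36, in contrast to the overlapping Pfkl and Pfkp.

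Enolase did not follow the muscle form. Eno3, the muscle enolase, was lower in numbers 2 and 3, at 11.19 to 11.31 against 11.42 to 11.57, and Eno2, the neuronal enolase, was higher at 5.02 to 5.13 against 4.68 to 4.84. Hk1, Tpi1 and Ldhb overlapped, with differences of -0.02, -0.04 and 0.05.

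Of 7 further glucose transporters, 2 were higher and 0 lower in numbers 2 and 3. Slc2a4 encodes GLUT4, the insulin-responsive carrier of muscle and fat. Values were 5.29, 6.65, 7.17 and 4.97 for WT 1 to 4, with 5.28, 6.76, 6.86 and 5.18 for Runx1f/f 1 to 4, and the sets were far apart. The difference was 1.68, or 3.20-fold, with 1.77 within WT and 1.58 within Runx1f/f arrays, where Slc2a1 gave 0.86 and 0.11. Slc2a12 was higher by 0.38, and Slc2a3 overlapped. Txnip, which restrains glucose uptake, was also higher, at 6.94 to 7.39 against 5.86 to 6.31.

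Among 5 lactate carriers and chaperones, Slc16a1 was the 1 gene apart. It encodes MCT1, which moves lactate in either direction, with 10.47, 9.41, 9.20 and 10.28 across WT 1 to 4, against 10.10, 9.57, 9.52 and 10.16 across Runx1f/f. Numbers 2 and 3 were lower by 0.83 on average, 1.78-fold, with -1.07 within WT and -0.59 within Runx1f/f arrays. The overlapping Slc16a3 was higher by 0.20 over all 8 arrays, with 0.42 within WT but -0.02 within Runx1f/f arrays. Bsg, the chaperone that both carriers need at the membrane, overlapped with -0.08.

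Of 11 genes around pyruvate dehydrogenase, 2 were higher and 1 lower. Pdk4, the kinase tied to fatty acid use, gave the largest difference of any pathway gene listed. In order of replicate number, WT gave 10.09, 7.42, 7.12 and 9.76 while Runx1f/f gave 9.10, 8.09, 8.25 and 8.94. Numbers 2 and 3 were lower by 1.75 on average, 3.37-fold, with -2.65 within WT and -0.85 within Runx1f/f arrays. Over all 8 arrays Pdk1 overlapped. The phosphatase Pdp1, which opposes the kinases, was higher by 0.32 and the subunit gene Pdha1 by 0.15.

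**Figure D3:**
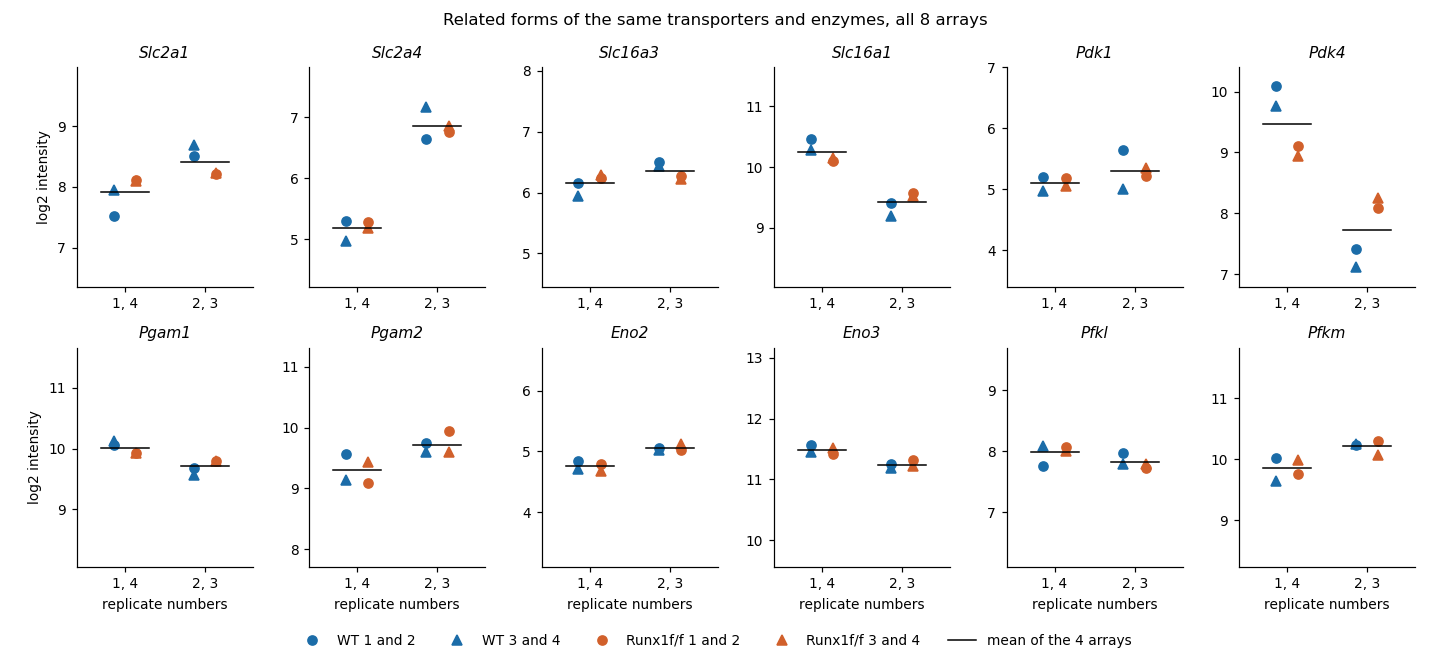
Log2 intensity (vertical axis, a window of equal height in each panel) of related carriers and enzymes in all 8 arrays by replicate numbers (horizontal axis), with symbols and colours for labels and numbers and lines for means of 4 arrays. Slc2a4 is higher and Slc16a1 and Pdk4 are lower in numbers 2 and 3 without overlap, while Slc16a3, Pdk1 and Pfkl overlap.

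The remaining lists were mixed. Of 20 hypoxia factors and targets, 4 were higher and 4 lower, with a median difference of -0.09. Vegfa, the vascular growth factor, was lower by 0.82 on average at 7.14 to 7.39 against 7.90 to 8.21, and P4ha2, a collagen prolyl hydroxylase, was lower with a difference of -0.46. Ankrd37 and Adm were higher by 0.41 and 0.39. Their array values of 3.89 to 4.70 and 3.42 to 4.35, like the 3.86 to 4.60 of P4ha2, are low, and how far they stand above background is unknown. Hif1a, the oxygen-regulated subunit, overlapped with -0.06, and Egln3 and Bnip3, both known targets, overlapped as well. Of 10 pentose phosphate and glycogen genes, 1 was higher (Phka1, a phosphorylase kinase subunit) and 2 lower (the brain phosphorylase Pygb and the branching enzyme Gbe1).

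**Figure D4:**
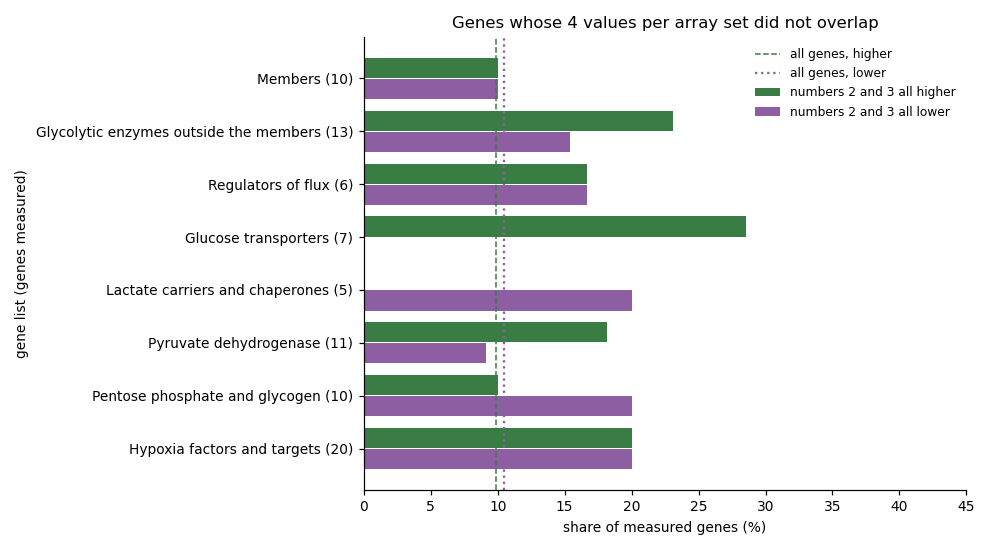
Share of the measured genes of each list (horizontal axis, percent) whose 4 values in numbers 2 and 3 all lay above (green) or all below (purple) those in numbers 1 and 4, with the number of genes measured in brackets and the shares of all genes as lines at 9.87% and 10.5%. The 10 members lie at the level of all genes in both directions.

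Markers of muscle differentiation moved with the array sets. Of 9 such markers 8 were higher in numbers 2 and 3, among them Myog by 0.76, Myh8 by 1.19, Ckm by 0.99 and Mybpc1 by 1.54. The list's mean per array was 10.63 to 11.15 against 9.71 to 10.23. For this and the next lists, the shares of all genes were 9.87% higher and 10.5% lower. Among genes with a mean above the median they were 14.4% and 16.4%. Of 6 proliferation markers 4 were lower, with array means of 9.02 to 9.15 against 9.33 to 9.56. Runx1 itself was higher in numbers 2 and 3 by 0.74. The part of these in the levels of Slc2a1, Slc2a4, Slc16a1 or Pdk4 was not tested. Of the 6 myoblast markers that check the labelled cell type, 2 were higher in numbers 2 and 3 and 2 lower. Cdh15 (9.90 to 10.38 over the 8 arrays) and Des (11.13 to 11.47) were higher by 0.25 and 0.18. Myf5 (7.54 to 8.71) and Myod1 (11.12 to 11.57) were lower, with differences of -0.89 and -0.26. Pax7 (6.83 to 7.19) and Itga7 (9.98 to 10.43) overlapped. Of 5 fibroblast markers Col1a2 ran from 9.13 to 10.39, Col1a1 from 4.41 to 4.82, and Dcn, Lum and Pdgfra from 3.40 to 3.63, with array means over the list of 4.88 to 5.16. Array means ran over 5 leukocyte markers from 3.60 to 3.67 and over 4 endothelial markers from 3.47 to 3.54. In each of the fibroblast and leukocyte lists 0 were apart. In the endothelial list Kdr was higher by 0.06 and Pecam1 lower with a difference of -0.19. RMA values do not reach 0, so none of these markers can be read as absent.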

How the data were processed

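The deposited values are log2 intensities, 1 per probe set and array. RMA and Partek, without versions, are named in the submitters' processing notes. RMA corrects background, applies quantile normalization over arrays and combines the probes of a set. No source used here records the step that made the column-set means equal. It leaves 5 components with variance, so residual degrees of freedom are overstated. Array medians were 4.39 to 4.41. The number of arrays limits precision, and because detection values were not used, the limit that background sets is unknown.

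Columns were matched to samples by the accession in their header. Symbols came from the platform annotation, with older names looked up in a RefSeq table (GRCm38.p6). Where a gene had several probe sets, the one with the highest mean was used, and dim genes were kept. The members and the gene lists were chosen with earlier results of these data known. Named were all members, Runx1, chosen related forms, up to 5 genes apart per pathway list and the 5 nearest profiles to the member of widest range. Other genes were named after their values were seen. The labelled genotypes were fitted in R 4.3.3 by limma 3.58.1 (lmFit, eBayes, two-sided, Benjamini-Hochberg, threshold 0.05). The fit was tested on simulated independent arrays. Those lack the equal column-set means of the real data, so that test does not bear on the counts given here. Deviations of same-numbered arrays from their genotype mean correlated over genes by 0.39, 0.46, 0.60 and 0.57. The numbers were therefore treated as pairs in an alternative fit, although the labels give no pairing. Alternatives were a replicate block, a block for runs of the labels' source numbers, other scalings and other probe set choices. A filter on dim genes, each array left out and, for member differences, numbers 2 against 1 alone were also run.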

Additional observations from a re-analysis of the deposited data

How the results depend on the processing

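The limma counts between labelled genotypes stayed at 0 genes and 0 members under each setting run. Settings that keep all columns keep the equal means, which fixes those counts, so this says nothing about robustness. With the replicate block the Runx1 difference stayed at -1.25e-05 and the block changed no call. With 1 array left out it ran from -0.17 to 0.20 (adjusted p of 1 after rounding in limma), and 0 to 27 genes had an unadjusted p under 0.05. Slc2a1 and Pkm were the 2 members apart after centring, repeated quantile normalization, averaging all probe sets of a gene or taking the other Pkm probe set, which was chosen after seeing the data. With 1 array left out, the share of all genes apart rose from 20.4% to between 23.2% and 26.0%. In the same settings 2 to 3 members were apart, and Slc2a1 and Pkm were among them each time. Leaving out an array cannot undo such a call, so their place there was fixed and says nothing about robustness. Pfkl was added without WT 1, Pgk1 without WT 2 and Pdk1 without WT 3. The difference of Slc2a1 ran from 0.35 to 0.55 over 13 settings, and that of Pkm from -0.14 to -0.09. Those of members with overlap ran from 0.08 to 0.30 for Pdk1, 0.13 to 0.25 for Slc16a3, -0.22 to -0.02 for Hk2 and -0.23 to -0.06 for Pfkl. Signs changed in 2 settings for Pfkp and in 1 each for Pgk1 and Ldha. The changes for Pgk1 and Ldha, and 1 of the 2 for Pfkp, came from numbers 2 against 1 alone, 2 arrays against 2. That setting also gave the -0.09 of Pkm, the -0.22 of Hk2 and the -0.06 of Pfkl. Detection values were not used, so how far signal over background limits the dimmer genes is unknown.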
